A study of Mus musculus with 10 samples.

Results

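The 35 genes described here encode the mitochondrial machinery that takes up long-chain fatty acids, oxidises them to acetyl-CoA and burns that acetyl-CoA in the tricarboxylic acid (TCA) cycle, together with the malonyl-CoA enzymes that gate the uptake and the cytosolic malate dehydrogenase Mdh1. They were chosen by gene symbol, with earlier results of these data known. All 35 were found among the 34162 gene names of the deposited table, on 148 of its 92214 transcript rows, and the estimated counts of a gene's rows were summed. Melanoma cells had been sorted from fresh tumours of C57BL/6:SV129 mice, a strain background that every sample shares. Metastatic cells came from lymph nodes and primary cells from skin, and each was divided by green fluorescent protein (GFP) into c-Myc-high (GFP-positive) and c-Myc-low (GFP-negative) cells. There were 3 metastatic c-Myc-high, 3 metastatic c-Myc-low, 2 primary c-Myc-high and 2 primary c-Myc-low libraries. The tumour-driving alleles, what drives GFP, any treatment, age and the number of animals behind a library are not stated in the sources used here. RNA was amplified before Illumina sequencing. Since no label ties replicates to separate mice, a p-value here reflects only how far these particular samples scatter.

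Long-chain fatty acids enter mitochondria as carnitine esters, and each turn of beta-oxidation then runs through a dehydrogenase, a hydratase, a second dehydrogenase and a thiolase, with auxiliary enzymes for unsaturated chains. The electrons leave through an electron transfer flavoprotein to ubiquinone or through NADH, and the acetyl-CoA enters the TCA cycle at citrate synthase. Malonyl-CoA, the building block of fatty acid synthesis, blocks the carnitine entry step, and c-Myc is a transcription factor with many reported targets in mitochondrial and anabolic metabolism.

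The total estimated count was 1603012 to 6844328 per library, and 3 counts in a library stood for 0.438 to 1.87 counts scaled to library size (CPM). The 35 genes took 0.167% to 0.286% of the counts. With 10 or more counts, 32 to 35 of them were detected in metastatic libraries, 27 and 26 in primary c-Myc-high and 34 in each primary c-Myc-low library. Log CPM of replicates had a correlation across genes of 0.587 to 0.674 in c-Myc-high pairs and of 0.806 to 0.914 in c-Myc-low pairs. Myc itself was at 148, 267 and 234 CPM in metastatic c-Myc-high, 101, 231 and 317 CPM in metastatic c-Myc-low, 997 and 104 CPM in primary c-Myc-high, and 162 and 318 CPM in primary c-Myc-low libraries. These ranges overlap within each site, and Myc was not called between the c-Myc classes at either site. The edgeR test called 0 of all 16805 genes there, so the missing call says nothing specific about Myc. The log2 change of Myc was 0.0 (SE 0.79) in metastatic and 1.2 (SE 0.98, adjusted p = 0.623) in primary cells.

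All 15 pigment cell markers on a list of melanocyte genes were detected in every group. Their summed level was 2971 to 16022 CPM in metastatic c-Myc-high, 6983 to 21018 CPM in metastatic c-Myc-low, 638 to 3004 CPM in primary c-Myc-high and 790 to 1352 CPM in primary c-Myc-low libraries. The 16 keratinocyte markers summed to 36.4 to 460 CPM and 32.4 to 47.6 CPM in the metastatic c-Myc-high and c-Myc-low groups, against 63896 to 95512 CPM and 24767 to 46203 CPM in the primary ones. The 11 B cell markers ran the other way, at 170 to 22849 CPM and 491 to 15477 CPM in the metastatic groups against 1.99 to 47.0 CPM and 8.73 to 31.8 CPM in the primary groups. Salivary and other gland genes summed to 113450 CPM in replicate 1 and 30950 CPM in replicate 3 of the metastatic c-Myc-high group, against at most 778 CPM in each of the other libraries. Of the 13 measured gland genes, 4 had 0 counts in each primary group. Fewer cells of a type and less RNA per cell cannot be told apart in such bulk samples.

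**Figure D1:**
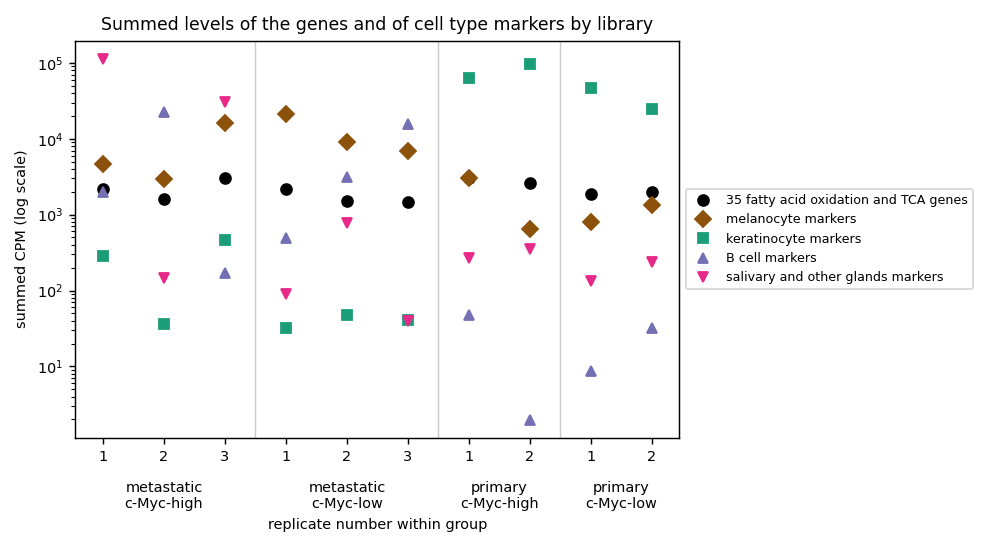
Summed CPM (log scale) of the 35 fatty acid oxidation and TCA cycle genes and of 4 marker lists in each of the 10 libraries, grouped by site and c-Myc class. The 35 genes stay between 1453 and 3020 CPM in all libraries, while keratinocyte markers lie at 24767 CPM or more in every primary library and at or below 460 CPM in every metastatic one.

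Summed over all 35 genes, the level was 1628 to 3002 CPM in metastatic c-Myc-high, 1453 to 2191 CPM in metastatic c-Myc-low, 2589 and 3020 CPM in primary c-Myc-high, and 1886 and 2005 CPM in primary c-Myc-low libraries. Between genes, levels were compared per length, on the deposited RPKM, reads scaled to transcript length and library size, summed over rows. Mdh2, the mitochondrial malate dehydrogenase, had the highest median level, 45.6 RPKM over the 10 libraries (11.2 to 74.5), and was among the 3 highest of these genes in 10 of 10 libraries. Idh3b at 12.4, Eci2 at 10.5, Cs at 10.4 and Ogdh at 10 RPKM followed, and their ranges over libraries overlap. Acacb, Acads and Acaca were lowest at 0.244, 0.443 and 0.662 RPKM. The order depends on which transcript rows are counted. With rows annotated as protein-coding alone, the highest medians were 10.4 RPKM for Cs, 10.2 for Eci2 and 9.53 for Mdh2.

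**Figure D2:**
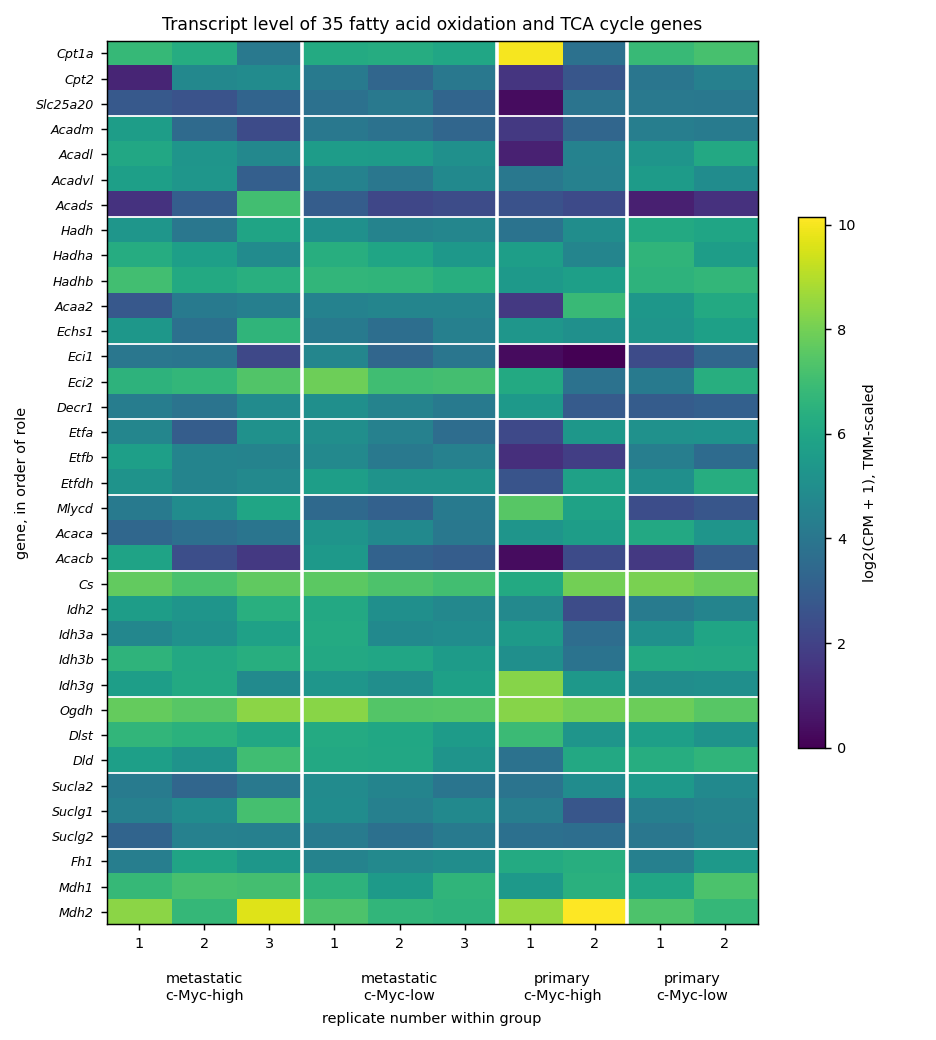
Level of each of the 35 genes, as log2(CPM + 1) with TMM-scaled library sizes, in every library; genes run down the page by role and libraries are grouped by site and c-Myc class. Mdh2, Ogdh and Cs are bright in most libraries, and Cpt1a in primary c-Myc-high replicate 1 stands out at 1027 CPM beside 12.7 CPM in replicate 2.

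All 35 genes passed the filter on low counts, and 0 of them were called in metastatic over primary cells of the c-Myc-high class at an adjusted p under 0.05 (edgeR quasi-likelihood test with Benjamini-Hochberg adjustment). Of the 16805 genes tested, 3.97% were called, 1.65% higher and 2.31% lower. At an unadjusted p under 0.05 there were 7 of the 35, which is 20.0% against 26.2% of all genes. DESeq2 called Eci1, Etfb and Idh3b higher (8.57% of the 35, against 11.9% of all genes) and Acaca lower (2.86% against 7.41%). Metastatic libraries all lay above both primary ones for 9 of the 35, or 25.7%, against 17.4% of all genes. They all lay below for 2, or 5.71%, against 10.5%. The log2 fold change was positive for 23 of the 35 and for 56.7% of all genes, with a median of 0.49 beside 0.38. With DESeq2's size factors the median of all genes shifted to 0.28 and that of the 35 to 0.43. Without primary c-Myc-high replicate 2, 3 genes were called, Acadl higher and Cpt1a and Idh3g lower. That fit leaves 1 primary c-Myc-high library, which is assumed to vary like the other groups. Without metastatic c-Myc-high replicate 3, Eci1 and Etfb were called higher. What share of all genes these fits called is not given here, so their calls cannot be set against it.

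Between c-Myc-low cells of the 2 sites 0 of the 35 genes were called, against 2.11% of all genes (0.375% higher and 1.74% lower), and 0 had an unadjusted p under 0.05, against 15.1% of all genes. DESeq2 also called 0, against 6.12% of all genes higher and 3.92% lower. In contrast, limma-voom with quality weights called 4, Decr1 and Eci2 higher and Echs1 and Hadh lower. A fit of these 2 groups alone called Hadh lower. The shares of all genes that these fits called are not given here, so the calls cannot be set against them. Metastatic libraries all lay above the primary ones for 5 of the 35, or 14.3%, against 25.2% of all genes, and all below for 10, or 28.6%, against 20.1%. The median log2 fold change was -0.27, beside 0.10 over all genes, and it was positive for 12 of the 35 and 53.8% of all genes. Only Eci2 and Idh2 (higher) and Acaca (lower) had metastatic and primary libraries apart in the same direction within both c-Myc classes. The share of all genes that do so was not counted.

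Averaged over both c-Myc classes, 2 of the 35 genes rose in metastatic cells, Eci1 and Etfb, and 0 fell. This is 5.71% of the list, against 13.8% of all genes called in either direction (8.13% higher and 5.64% lower). At an unadjusted p under 0.05 there were 8 of the 35, or 22.9% against 30.4% of all genes. DESeq2 called 4 higher (Acads, Eci1, Eci2 and Etfb), against 15.3% of all genes, and Acaca lower, against 8.32%. The log2 change was positive for 20 of the 35 and for 57.6% of all genes, with a median of 0.11 beside 0.28. Calls turned on single libraries, and the share of all genes called without each library is not given here. Without any 1 of metastatic c-Myc-high replicate 2, the 3 metastatic c-Myc-low or the 2 primary c-Myc-low libraries 0 genes were called, and without metastatic c-Myc-high replicate 1 Eci1 alone was. Without primary c-Myc-high replicate 1 Acaa2 alone was called, lower, and without replicate 2 Acadl and Etfb were called higher and Cpt1a lower, with 1 library again standing for the group. The keratinocyte, B cell and gland markers given above differ between the same groups, and their part in these results was not tested. Without the 2 gland-rich metastatic c-Myc-high libraries the log2 change was 3.67 for Eci1 (adjusted p = 0.0307) and 1.89 for Etfb (adjusted p = 0.0927), and without the 2 libraries richest in B cell transcripts it was 3.35 (adjusted p = 0.0948) and 2.18 (adjusted p = 0.115).

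**Figure D3:**
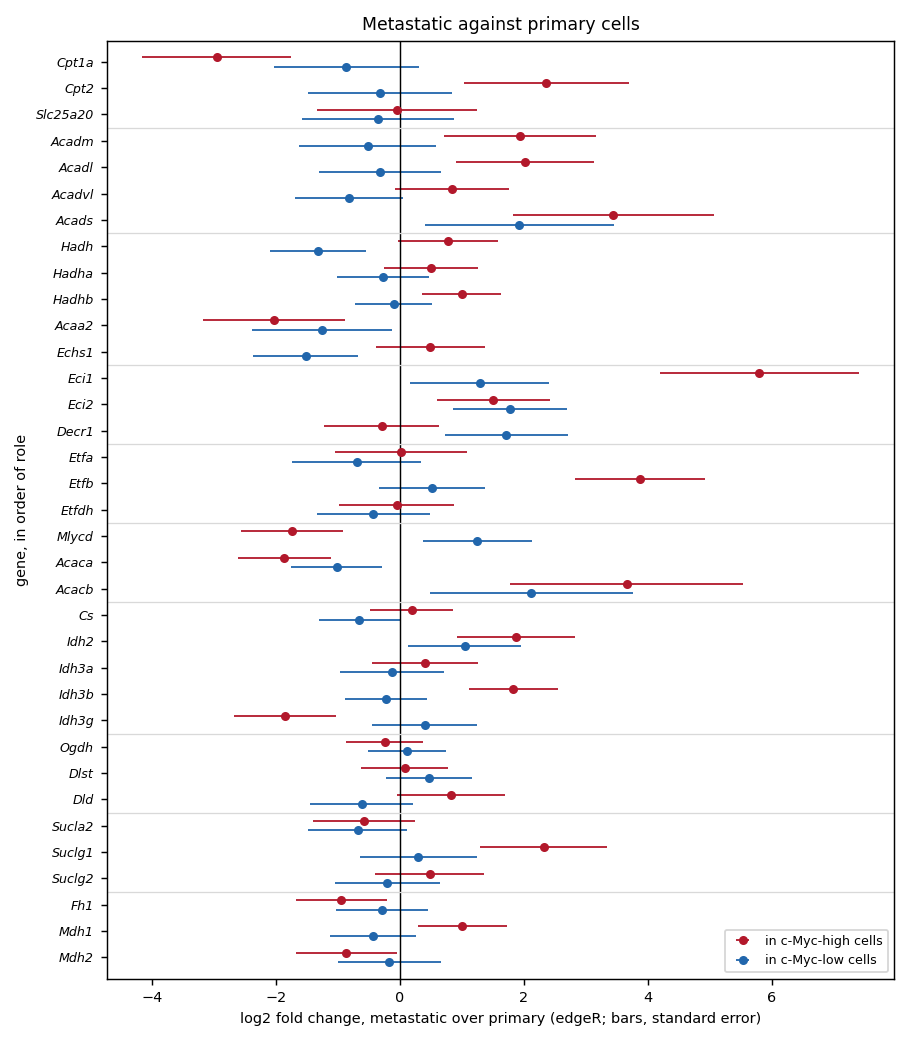
Log2 fold change of each gene, metastatic over primary, with its standard error, in c-Myc-high (red) and c-Myc-low (blue) cells; zero is the black line and genes run down the page by role. Eci1 and Etfb lie farthest right in c-Myc-high cells, at 5.80 and 3.88, and the c-Myc-low values stay between -1.52 and 2.12.

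Between the c-Myc classes edgeR called 0 of the 35 genes at either site or on average over sites, as it did for all 16805 genes (0.0% called in each). At an unadjusted p under 0.05 there were 2 of the 35 in metastatic cells, or 5.71% against 4.8% of all genes, 5 in primary cells, or 14.3% against 11.6%, and 5 on average, or 14.3% against 12.9%. DESeq2 called 0 in metastatic cells (0.422% of all genes higher and 0.0893% lower), Mlycd higher in primary cells (1.17% of all genes higher and 1.2% lower) and Mlycd and Mdh2 higher on average (1.95% of all genes higher and 1.03% lower). In metastatic cells the c-Myc-high libraries all lay above the c-Myc-low ones for 1 gene, Mdh1 (2.86%, against 3.33% of all genes), and all below for 4, Slc25a20, Acaa2, Etfdh and Acaca (11.4% against 7.75%). In primary cells 6 genes lay apart and higher (17.1% against 11.4%) and 13 apart and lower (37.1% against 30.2%). With all rows summed, 0 lay apart over both sites, against 0.399% of all genes higher and 1.65% lower. Slc25a20 was, also with all rows summed, the only one of the 35 to lie apart in the same direction at both sites. In metastatic cells it did so by 8.69 against 8.90 CPM at the closest. On protein-coding rows alone Mlycd also lay apart, higher at each site and over both. Etfdh then lay apart and lower at each site. The share of all genes apart at both sites was not counted. The log2 change was positive for 24 of the 35 in metastatic cells, against 49.5% of all genes, for 10 in primary cells, against 44.7%, and for 12 on average, against 46.3%. Its median over the 35 was 0.21 beside 0.00 for all genes in metastatic cells and -0.70 beside -0.12 in primary cells. DESeq2's size factors moved the median of all genes to 0.00 in primary cells and to 0.03 on average over sites, where it was -0.11 with TMM factors, and the median of the 35 to -0.46 and -0.10. The difference of the c-Myc contrast between sites was called for 0 of the 35 and for 0.0% of all genes, with 3 of the 35 at an unadjusted p under 0.05 (8.57%, against 6.84% of all genes), and DESeq2 called 0 of the 35 (0.327% of all genes higher and 0.173% lower). It was positive for 24 of the 35 and for 54.6% of all genes.

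**Figure D4:**
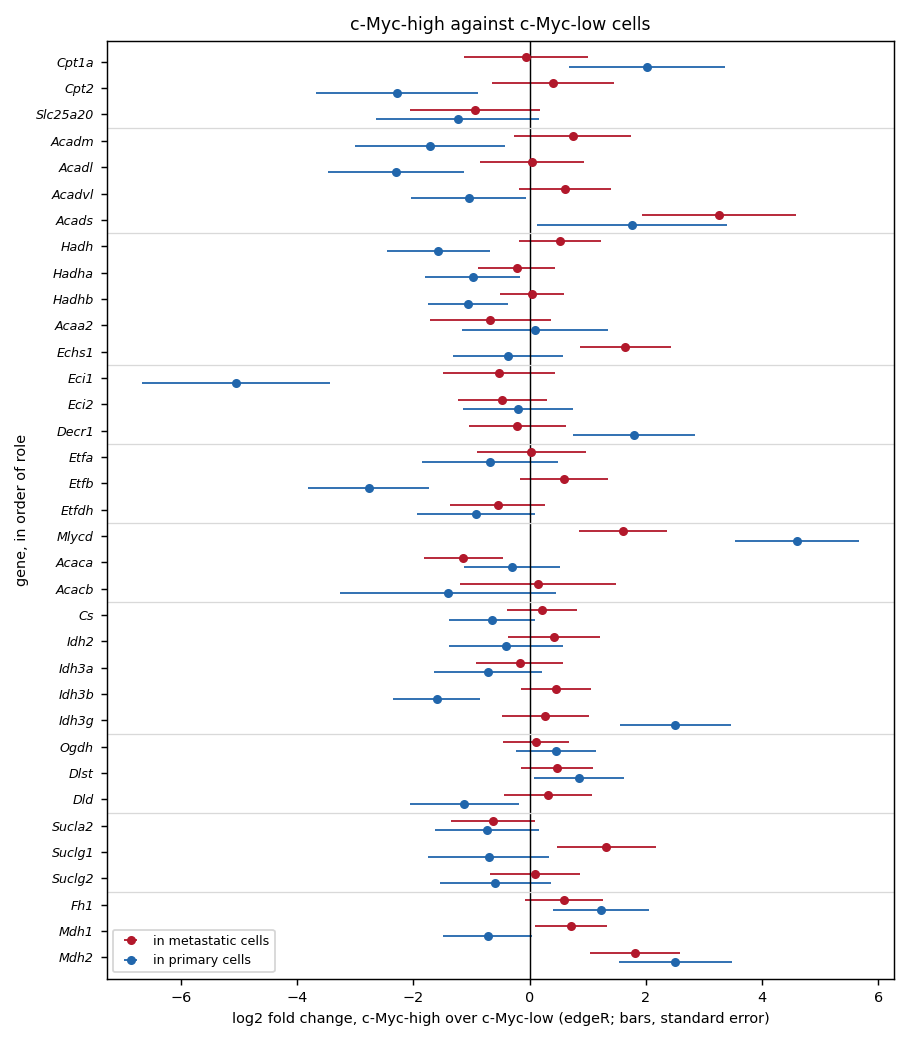
Log2 fold change of each gene, c-Myc-high over c-Myc-low, with its standard error, in metastatic (red) and primary (blue) cells; zero is the black line and genes run down the page by role. Mlycd lies to the right at both sites, at 1.61 and 4.60, and Eci1 lies farthest left in primary cells at -5.05.

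Replicates of the c-Myc-high groups were far apart for some of these genes, as for many of all genes. The median range of log2(CPM + 1) was 1.35 beside 2.1 over all genes in metastatic and 1.62 beside 1.4 in primary c-Myc-high cells. The range of log2(CPM + 1) within a group exceeded 2 for 10 of the 35 in metastatic c-Myc-high cells, against 53.1% of all genes, and for 11 in primary c-Myc-high cells, against 37.7%. It did so for 1 gene in each c-Myc-low group, Acacb in metastatic and Eci2 in primary cells, against 15% and 3.19% of all genes. The widest ranges were 5.59 for Acads in metastatic c-Myc-high and 6.23 for Cpt1a in primary c-Myc-high cells.

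Entry of fatty acids was measured through the carnitine shuttle, of which no gene was called in any of the 7 comparisons. Cpt1a was at 109, 76.2 and 16.3 CPM in metastatic c-Myc-high, 72.3, 76.7 and 62.3 CPM in metastatic c-Myc-low, 1027 and 12.7 CPM in primary c-Myc-high, and 113 and 144 CPM in primary c-Myc-low libraries. Cpt1a, whose product carnitine palmitoyltransferase catalyses the entry step that malonyl-CoA inhibits, was thus both highest and lowest in the 2 primary c-Myc-high libraries, and its metastatic values fall between them. Within the c-Myc-high class its log2 change between sites was -2.95 (SE 1.2, adjusted p = 0.155). It became 2.13 without primary c-Myc-high replicate 1 and -3.87 at its lowest, and Cpt1a was called in 2 of 23 alternatives, so the sign depends on 1 library. Slc25a20 stood at 6.02, 5 and 8.69 CPM in metastatic c-Myc-high, 12.8, 16.1 and 8.90 CPM in metastatic c-Myc-low, 0.278 and 13.9 CPM in primary c-Myc-high, and 16.2 and 15.8 CPM in primary c-Myc-low libraries. Slc25a20, the carnitine-acylcarnitine carrier of the inner membrane, was lower in every c-Myc-high than in every c-Myc-low library within each site, with a log2 change of -1.09 (SE 0.90, adjusted p = 0.637) on average. Cpt2, which turns the acylcarnitine back into acyl-CoA, ran from 1.08 to 28.6 CPM, with both extremes among metastatic c-Myc-high libraries, and within the c-Myc-high class its log2 change between sites was 2.36 (SE 1.33, adjusted p = 0.268).

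The 4 acyl-CoA dehydrogenases take the first step of beta-oxidation for chains of different length. They had positive log2 changes between sites in c-Myc-high cells without being called, and 56.7% of all genes were also positive. Acads measured 1.78, 7.08 and 132 CPM in metastatic c-Myc-high, 6.89, 3.44 and 4.15 CPM in metastatic c-Myc-low, 4.88 and 3.82 CPM in primary c-Myc-high, and 0.862 and 1.75 CPM in primary c-Myc-low libraries. Acads, for short chains, was at or above 1.78 CPM in all metastatic libraries and reached 132 CPM in 1 of them. Within the c-Myc-high class its log2 change between sites was 3.44 (SE 1.62, adjusted p = 0.2). Over 23 alternatives that change ran from -0.08 to 4.01, with the opposite sign in 1. Its log2 change over both c-Myc classes was 2.68 (SE 1.11, adjusted p = 0.125). Acadvl had 51.2, 38.9 and 7.41 CPM in metastatic c-Myc-high, 21.5, 15.1 and 26.9 CPM in metastatic c-Myc-low, 15.8 and 20.7 CPM in primary c-Myc-high, and 45.8 and 29.3 CPM in primary c-Myc-low libraries. Acadvl, for very long chains, differed between sites by 0.84 (SE 0.92, adjusted p = 0.577) in the c-Myc-high class and by -0.82 (SE 0.87, adjusted p = 0.919) in the c-Myc-low class, and 42.9% of its exon bases overlap Dvl2 on the other strand, so reads of the pair may be shared. Acadl, for long chains, was at 25.6 to 66.7 CPM in metastatic against 0.92 and 21.5 CPM in primary c-Myc-high cells, groups that do not overlap, with a log2 change of 2.02 (SE 1.11, adjusted p = 0.257). Acadm, for medium chains, spanned 4.02 to 48.9 CPM in metastatic c-Myc-high cells and 2.25 and 9.29 CPM in primary ones, which overlap.

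In the hydratase, hydroxyacyl-CoA dehydrogenase and thiolase steps no gene was called. Hadhb was at 133, 70.2 and 83.2 CPM in metastatic c-Myc-high, 100, 97.6 and 81.5 CPM in metastatic c-Myc-low, 44.2 and 51.5 CPM in primary c-Myc-high, and 93.7 and 105 CPM in primary c-Myc-low libraries. Hadhb, the thiolase subunit of the mitochondrial trifunctional protein, lay above both primary c-Myc-high libraries in all 3 metastatic ones (log2 change 1.0, SE 0.64, adjusted p = 0.322), while the c-Myc-low groups overlap (log2 change -0.10, SE 0.62, adjusted p = 1.0). Its transcripts are 99.8% identical over 1428 bases to the processed pseudogene Gm13910, which makes its count uncertain. Acaa2 stood at 5.94, 17.1 and 19.9 CPM in metastatic c-Myc-high, 21.3, 23.5 and 23.8 CPM in metastatic c-Myc-low, 2.25 and 115 CPM in primary c-Myc-high, and 40.2 and 69.6 CPM in primary c-Myc-low libraries. Acaa2, the main thiolase for medium chains, had its highest and its lowest value in the 2 primary c-Myc-high libraries. Every metastatic c-Myc-low library was below both primary c-Myc-low ones for Acaa2 (log2 change -1.26, SE 1.13, adjusted p = 0.834), and likewise for Hadh, the short-chain hydroxyacyl-CoA dehydrogenase (log2 change -1.32, SE 0.77, adjusted p = 0.512), and for Echs1, the short-chain enoyl-CoA hydratase (log2 change -1.52, SE 0.85, adjusted p = 0.476). Hadha, the partner subunit of Hadhb, overlapped between groups in all site comparisons, at 28.6 to 76.8 CPM in metastatic and 23.3 and 50.7 CPM in primary c-Myc-high cells.

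Among the auxiliary enzymes for unsaturated fatty acids, Eci1 rose in metastatic cells. Eci1 measured 15, 14.5 and 3.56 CPM in metastatic c-Myc-high, 24.4, 9.12 and 14.8 CPM in metastatic c-Myc-low, 0.240 and 0 CPM in primary c-Myc-high, and 3.92 and 9.18 CPM in primary c-Myc-low libraries. The product of Eci1 is an enoyl-CoA isomerase that moves double bonds into the position the hydratase needs. Its RNA was thus above 3 CPM in every metastatic and primary c-Myc-low library and near 0 in primary c-Myc-high cells. The 2 primary c-Myc-high libraries held 1 count together, against 134 in the 3 metastatic c-Myc-high and 64 in the 2 primary c-Myc-low libraries. The resulting ratio is 66.4 for metastatic over primary c-Myc-high cells (95% exact interval 11.7 to 2640) and 0.0351 for c-Myc-high over c-Myc-low primary cells (0.000874 to 0.202), intervals that cover counting error only. Over both c-Myc classes the fitted log2 change was 3.54 (SE 0.98, adjusted p = 0.0330), a value that depends on how 0 counts are fitted. Within the c-Myc-low class, where the sites overlap, it was 1.29 (SE 1.12, adjusted p = 0.816). Over 22 alternatives the adjusted p ranged from 0.00144 to 0.183 and passed in 8, with a log2 change between 1.2 and 4.97 and no change of sign.

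Eci2 had 92.8, 105 and 167 CPM in metastatic c-Myc-high, 237, 131 and 136 CPM in metastatic c-Myc-low, 71.2 and 13.2 CPM in primary c-Myc-high, and 16.6 and 81.6 CPM in primary c-Myc-low libraries. Eci2, another isomerase, found in mitochondria and peroxisomes, was above both primary libraries in every metastatic library within each c-Myc class and over both (log2 change 1.65, SE 0.64, adjusted p = 0.110), without being called. It was the only one of the 35 whose 6 metastatic libraries all lay above all 4 primary ones, a pattern that 5.87% of all genes share. Part of its transcript is 95.2% identical to its paralogue Eci3 over 397 bases. Decr1, the dienoyl-CoA reductase, was at 16.5 to 31.9 CPM in metastatic and 6.75 and 7.63 CPM in primary c-Myc-low cells (log2 change 1.72, SE 0.99, adjusted p = 0.498), and its c-Myc-high groups overlap.

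Electron transfer from the acyl-CoA dehydrogenases to ubiquinone held the other gene that rose, Etfb. Etfb was at 51.3, 22.5 and 22.1 CPM in metastatic c-Myc-high, 26.5, 15.9 and 21.2 CPM in metastatic c-Myc-low, 1.59 and 2.68 CPM in primary c-Myc-high, and 19.0 and 10.7 CPM in primary c-Myc-low libraries. Etfb, the beta subunit of the electron transfer flavoprotein, was thus lowest in primary c-Myc-high cells, and all 3 metastatic c-Myc-high libraries lay above both of them. The c-Myc-low groups overlap. Over both c-Myc classes the log2 change was 2.20 (SE 0.67, adjusted p = 0.0481), within the c-Myc-high class 3.88 (SE 1.05, adjusted p = 0.0599) and within the c-Myc-low class 0.52 (SE 0.85, adjusted p = 1.0). The difference between these effects, 3.36 (SE 1.28, adjusted p = 0.725), was not called. Over 22 alternatives the adjusted p ranged from 0.00147 to 0.206, passed in 5, and was 0.164 when protein-coding rows alone were counted. Those rows gave a log2 change of 5.12 within the c-Myc-high class (adjusted p = 0.136). Over all 23 alternatives, of which that fit is 1, the adjusted p ran from 0.000343 to 0.299. In the annotation 53.0% of the exon bases of Etfb are shared with Gm45233, a same-strand gene that is not among the deposited names, so reads of that gene could be counted here. Etfa, the alpha subunit, was not called. It was at 6.92 to 34.1 CPM in metastatic and 3.69 and 40.4 CPM in primary c-Myc-high cells (log2 change 0.02, SE 1.06, adjusted p = 0.998). Etfdh, the ubiquinone oxidoreductase, was at 22.5 to 35.8 CPM in metastatic against 5.14 and 54.2 CPM in primary c-Myc-high cells (log2 change -0.05, SE 0.93, adjusted p = 0.984). All 54.2 CPM lay on Etfdh-206, a row annotated as a retained intron. Its protein-coding rows had 32.9, 18.5 and 26.3 CPM in metastatic against 5.14 and 0 CPM in primary c-Myc-high libraries. Their log2 change was 3.08 (SE 1.15, adjusted p = 0.127). Over all 23 alternatives, of which that fit is 1, the adjusted p ran from 0.0739 to 1.0. The direction of Etfdh between sites in c-Myc-high cells thus depends on the rows counted. For the c-Myc classes of the primary site, Etfdh differed by a log2 change of -0.92 (SE 1.02, adjusted p = 0.724) with all rows. It differed by -4.18 (adjusted p = 0.451) over protein-coding rows, and the adjusted p over all alternatives ran from 0.0566 to 1.0.

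Malonyl-CoA control showed the lowest p-value of the 35 genes between c-Myc classes. Mlycd stood at 16.6, 29.2 and 61.4 CPM in metastatic c-Myc-high, 10, 7.82 and 17.3 CPM in metastatic c-Myc-low, 181 and 55.7 CPM in primary c-Myc-high, and 4.29 and 5.57 CPM in primary c-Myc-low libraries. Mlycd, malonyl-CoA decarboxylase, which removes the inhibitor of fatty acid entry, was higher in both primary c-Myc-high libraries than in any c-Myc-low library of either site. On its protein-coding row alone Mlycd had 15.7, 27.8 and 54.7 CPM in metastatic c-Myc-high against 9.45, 4.13 and 11.7 CPM in metastatic c-Myc-low libraries. These groups lie apart. That row gave a log2 change of 3.32 on average over sites (SE 0.67, adjusted p = 0.319). Over all rows, in metastatic cells the lowest c-Myc-high value of Mlycd lies just under the highest c-Myc-low one. Its log2 change was 1.61 (SE 0.76, adjusted p = 1.0) in metastatic cells, 4.60 (SE 1.06, adjusted p = 0.419) in primary cells and 3.10 (SE 0.65, adjusted p = 0.305) on average, with an unadjusted p of 0.000437 that did not pass over all genes. DESeq2 called it on average (adjusted p = 3.26e-05) and in primary cells (adjusted p = 0.000241), and the adjusted p of the average ran from 3.26e-05 to 0.705 over 22 alternatives. The 16 keratinocyte markers also summed to 63896 and 95512 CPM in primary c-Myc-high against 46203 and 24767 CPM in primary c-Myc-low libraries. This order did not hold for each marker. Krt5 was at 16865 and 1274 CPM in primary c-Myc-high against 6307 and 3396 CPM in primary c-Myc-low libraries. Krt14 was at 13210 and 990 CPM against 3607 and 2356 CPM. For the other markers single values are not given here. The part of keratinocyte markers in the Mlycd result was not tested.

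Acaca measured 9.54, 12.0 and 14.3 CPM in metastatic c-Myc-high, 36.5, 26.7 and 15.5 CPM in metastatic c-Myc-low, 38.2 and 48.9 CPM in primary c-Myc-high, and 68.8 and 38.0 CPM in primary c-Myc-low libraries. Acaca, the acetyl-CoA carboxylase that makes malonyl-CoA for fatty acid synthesis, was below both primary libraries in every metastatic library within each c-Myc class, and below all 4 in all 6. This held for 5.13% of all genes. The log2 change over both classes was -1.44 (SE 0.53, adjusted p = 0.0883), DESeq2 called it (adjusted p = 0.0117), and the adjusted p ran from 0.0117 to 0.355 over 22 alternatives. Its transcripts are 99.2% identical to the pseudogene Gm5182 over 6118 bases. Acacb, the mitochondrial carboxylase, had between 0.26 and 58.5 CPM with the highest values in replicate 1 of each metastatic group, at 58.5 CPM in c-Myc-high and 43.7 CPM in c-Myc-low cells, and overlapped between sites (log2 change 2.89, SE 1.25, adjusted p = 0.141). With protein-coding rows alone the log2 change of Acacb was 3.70 (adjusted p = 0.122). Over all 22 alternatives, of which that fit is 1, the adjusted p ran from 0.0603 to 0.46.

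**Figure D5:**
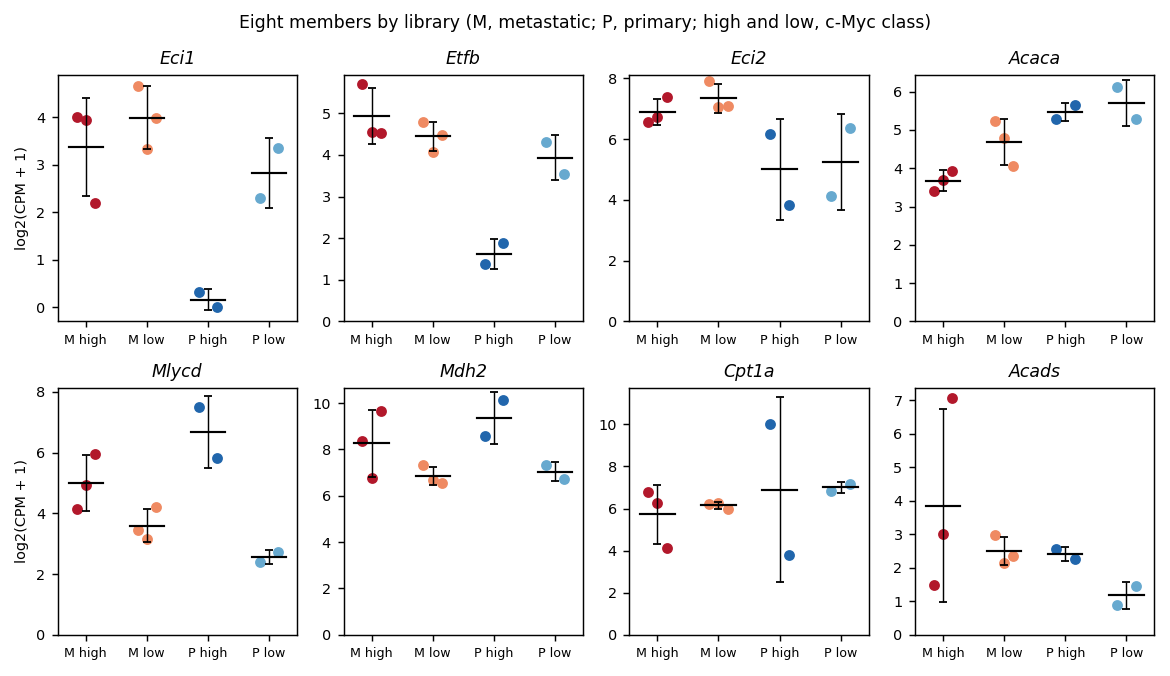
Level of 8 of the genes as log2(CPM + 1) in each library (points), with the group mean (line) and SD (bars; 3 metastatic libraries per c-Myc class, 2 primary ones), from metastatic c-Myc-high on the left to primary c-Myc-low on the right. Eci1 and Etfb are lowest in the primary c-Myc-high libraries, Mlycd is highest there, and the 2 primary c-Myc-high values of Cpt1a lie far apart.

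Citrate synthase and the isocitrate dehydrogenases open the TCA cycle, and 0 of the 5 were called. Cs had 205, 149 and 202 CPM in metastatic c-Myc-high, 191, 155 and 134 CPM in metastatic c-Myc-low, 70.8 and 254 CPM in primary c-Myc-high, and 276 and 228 CPM in primary c-Myc-low libraries. Cs, citrate synthase, was lower in all metastatic than in both primary c-Myc-low libraries (log2 change -0.65, SE 0.66, adjusted p = 0.898), and the c-Myc-high groups overlap (log2 change 0.19, SE 0.67, adjusted p = 0.883). Idh3b was at 96.5, 67.7 and 80.5 CPM in metastatic c-Myc-high, 69.3, 62.4 and 46.0 CPM in metastatic c-Myc-low, 32.3 and 13.4 CPM in primary c-Myc-high, and 69.7 and 68.7 CPM in primary c-Myc-low libraries. Idh3b, a regulatory subunit of the NAD-dependent isocitrate dehydrogenase, was higher in all 3 metastatic than in both primary c-Myc-high libraries (log2 change 1.83, SE 0.72, adjusted p = 0.141). It was lower in both primary c-Myc-high than in both primary c-Myc-low libraries (log2 change -1.60, SE 0.75, adjusted p = 0.434). Most of its count in the primary c-Myc-high libraries lay outside the protein-coding row, which had 80.5, 35.7 and 13.6 CPM in metastatic against 0.185 and 2.90 CPM in primary c-Myc-high libraries. In replicate 1 of the primary group, 16.5 CPM lay on a row not in the annotation used and 15.6 CPM on a retained intron. The protein-coding row alone gave Idh3b a log2 change of 5.0 between sites (SE 1.38, adjusted p = 0.0630). Over all 23 alternatives, of which that fit is 1, the adjusted p ran from 0.0206 to 0.519. For c-Myc-high over c-Myc-low at the primary site the protein-coding row gave -5.20 (adjusted p = 0.451), and the adjusted p over all alternatives ran from 0.209 to 0.848. Idh3a, the catalytic subunit of the same enzyme, overlapped between all groups compared, at 24.9 to 55.4 CPM in metastatic and 11.2 and 45.1 CPM in primary c-Myc-high cells.

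Idh3g stood at 51.0, 69.6 and 27.6 CPM in metastatic c-Myc-high, 38.9, 31.3 and 53.3 CPM in metastatic c-Myc-low, 314 and 41.1 CPM in primary c-Myc-high, and 30 and 32.4 CPM in primary c-Myc-low libraries. Idh3g, the other regulatory subunit, was by far highest in 1 library. There, in primary c-Myc-high replicate 1, 177 of its 314 CPM were assigned to Idh3g-209, a row annotated as a retained intron that was at or below 0.972 CPM in the other libraries. Its log2 change of 2.51 (SE 0.96, adjusted p = 0.419) in primary cells was 2.29 with protein-coding rows alone (adjusted p = 0.453). Over all alternatives, of which that fit is 1, the adjusted p ran from 0.0310 to 0.999. Idh2, the mitochondrial NADP-dependent enzyme, was at 37.5 to 83.0 CPM in metastatic against 4.11 and 26.1 CPM in primary c-Myc-high cells, and at 25.5 to 68.5 CPM in metastatic against 17.6 and 22.9 CPM in primary c-Myc-low cells. These groups lie apart in both classes, with a log2 change of 1.46 (SE 0.66, adjusted p = 0.156) over both. Of the 26.1 CPM in primary c-Myc-high replicate 1, 25.9 CPM lay on Idh2-202, a row annotated as a target of nonsense-mediated decay, and the protein-coding row had 0 CPM. With protein-coding rows alone the log2 change of Idh2 was 2.92 over both classes (SE 1.01, adjusted p = 0.0759) and 4.74 within the c-Myc-high class (adjusted p = 0.102). Each of these fits is 1 of the alternatives. Over all 22 alternatives for both classes the adjusted p ran from 0.0572 to 0.392. Over all 23 for the c-Myc-high class it ran from 0.102 to 0.646.

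In the oxoglutarate dehydrogenase complex no gene was called. Ogdh measured 213, 178 and 330 CPM in metastatic c-Myc-high, 323, 171 and 175 CPM in metastatic c-Myc-low, 311 and 255 CPM in primary c-Myc-high, and 234 and 180 CPM in primary c-Myc-low libraries. Ogdh, its oxoglutarate-decarboxylating subunit, varied from 171 to 330 CPM over the 10 libraries, with log2 changes of -0.24 (SE 0.62, adjusted p = 0.839) and 0.11 (SE 0.63, adjusted p = 1.0) between sites. Dlst had 99.6, 87.2 and 66.6 CPM in metastatic c-Myc-high, 71.6, 65.6 and 45.8 CPM in metastatic c-Myc-low, 120 and 38.5 CPM in primary c-Myc-high, and 52.4 and 35.8 CPM in primary c-Myc-low libraries. Dlst, the succinyltransferase core, overlapped between sites in both c-Myc classes (log2 change 0.28, SE 0.50, adjusted p = 0.771). Dld was at 51.5, 35.5 and 130 CPM in metastatic c-Myc-high, 69.3, 67.4 and 36.6 CPM in metastatic c-Myc-low, 13.0 and 68.7 CPM in primary c-Myc-high, and 77.7 and 98.5 CPM in primary c-Myc-low libraries. Dld, the dihydrolipoamide dehydrogenase that this complex shares with pyruvate dehydrogenase, was lower in all metastatic than in both primary c-Myc-low libraries (log2 change -0.61, SE 0.83, adjusted p = 0.996) and also lower in both primary c-Myc-high than in both primary c-Myc-low libraries (log2 change -1.12, SE 0.94, adjusted p = 0.635).

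Of the succinyl-CoA synthetase subunits none was called. Suclg1 stood at 20.6, 29.7 and 142 CPM in metastatic c-Myc-high, 29.6, 20.1 and 27.3 CPM in metastatic c-Myc-low, 19.4 and 5.54 CPM in primary c-Myc-high, and 19.5 and 22.4 CPM in primary c-Myc-low libraries. Suclg1, the alpha subunit common to both forms of the enzyme, lay above both primary c-Myc-high libraries in all 3 metastatic ones, though by 20.6 against 19.4 CPM at the closest; 1 metastatic library reached 142 CPM (log2 change 2.32, SE 1.03, adjusted p = 0.182). Of the 19.4 CPM in primary c-Myc-high replicate 1, 19.2 CPM lay on the retained-intron row Suclg1-205. The protein-coding row had 0 and 5.54 CPM in primary c-Myc-high libraries, and counting it alone gave a log2 change of 4.55 (SE 1.65, adjusted p = 0.120). Over all 23 alternatives, of which that fit is 1, the adjusted p ran from 0.0668 to 0.812. Sucla2 measured 17.7, 9.27 and 15.9 CPM in metastatic c-Myc-high, 28.7, 23.0 and 14.5 CPM in metastatic c-Myc-low, 14.1 and 29.2 CPM in primary c-Myc-high, and 43.6 and 27.2 CPM in primary c-Myc-low libraries. Sucla2, the ADP-forming beta subunit, overlapped in every comparison (log2 change -0.63, SE 0.57, adjusted p = 0.510 over both classes). Suclg2, the GDP-forming beta subunit, stayed between 8.51 and 20.8 CPM in all 10 libraries.

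Fumarase and the malate dehydrogenases close the cycle. Mdh2 had 332, 107 and 800 CPM in metastatic c-Myc-high, 158, 102 and 93.4 CPM in metastatic c-Myc-low, 378 and 1124 CPM in primary c-Myc-high, and 159 and 106 CPM in primary c-Myc-low libraries. Mdh2 had the highest median RPKM of the 35 when all rows were summed, though not with protein-coding rows alone. Over all rows it was above both primary c-Myc-low libraries in both primary c-Myc-high ones. Its metastatic groups overlap only through metastatic c-Myc-high replicate 2. The log2 change was 2.16 (SE 0.62, adjusted p = 0.305) on average over sites, and DESeq2 called it (adjusted p = 0.0165). The rows that carried Mdh2 differed between libraries. Mdh2-203, a transcript of 1112 bases annotated as a target of nonsense-mediated decay, had 0, 54.0 and 784 CPM in metastatic c-Myc-high, 11, 0 and 28.4 CPM in metastatic c-Myc-low, 219 and 1111 CPM in primary c-Myc-high, and 0 and 30 CPM in primary c-Myc-low libraries. Mdh2-201, the protein-coding transcript of 1456 bases, had 179, 51.8 and 16.3 CPM in metastatic c-Myc-high, 109, 60.9 and 58.9 CPM in metastatic c-Myc-low, 114 and 13.2 CPM in primary c-Myc-high, and 104 and 68.6 CPM in primary c-Myc-low libraries. The protein-coding row therefore overlaps between all groups. In metastatic c-Myc-high replicate 1, which has 0 CPM on Mdh2-203, the retained-intron rows had 78.8 and 74.2 CPM. Counting the protein-coding row alone gave a log2 change of -0.10 between c-Myc classes (adjusted p = 0.995), so the direction of Mdh2 depends on the rows counted. Over all 22 alternatives, of which that fit is 1, the adjusted p ran from 0.0165 to 0.995.

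Mdh1 was at 110, 144 and 135 CPM in metastatic c-Myc-high, 94.0, 44.4 and 99.2 CPM in metastatic c-Myc-low, 43.5 and 85.8 CPM in primary c-Myc-high, and 62.2 and 151 CPM in primary c-Myc-low libraries. Mdh1, the cytosolic malate dehydrogenase, was higher in all 3 metastatic than in both primary c-Myc-high libraries (log2 change 1.01, SE 0.72, adjusted p = 0.378) and than in all 3 metastatic c-Myc-low libraries (log2 change 0.71, SE 0.62, adjusted p = 1.0). Fh1, fumarase, was at 19.2 to 59.4 CPM in metastatic against 71.7 and 80.4 CPM in primary c-Myc-high cells. These groups lie apart (log2 change -0.94, SE 0.73, adjusted p = 0.425). On protein-coding rows alone they overlap, at 13.0, 29.9 and 13.0 CPM in metastatic against 27.0 and 31.7 CPM in primary libraries. Those rows gave a log2 change of -0.79 (SE 0.83, adjusted p = 0.559). Over all rows Fh1 was at 22.3 to 30.3 CPM in metastatic against 20.5 and 44.3 CPM in primary c-Myc-low cells, which overlap.

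Promoter sequence was read from RefSeq windows of 300 bases on GRCm38.p6, from 250 bases before to 50 after the annotated start. Of the 35 genes 32 had at least 1 window, 37 windows in all, and Acaa2, Decr1 and Idh3a had none in the table used. Shown are the bases just before the start of the genes that rose in metastatic cells and of Mlycd, all read on the plus strand, with the CCAAT box or its reverse complement ATTGG in capitals. The Eci1 stretch lies at chr17:24426583-24426682, that of Etfb at chr7:43443972-43444071 and that of Mlycd at chr8:119394794-119394893.
Eci1: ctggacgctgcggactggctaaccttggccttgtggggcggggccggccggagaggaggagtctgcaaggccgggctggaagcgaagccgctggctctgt
Etfb: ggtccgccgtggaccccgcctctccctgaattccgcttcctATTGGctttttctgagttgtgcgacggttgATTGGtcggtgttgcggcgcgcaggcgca
Mlycd: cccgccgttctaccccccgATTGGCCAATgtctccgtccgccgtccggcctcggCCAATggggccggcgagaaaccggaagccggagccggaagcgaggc
Searched on both strands, CCAAT, the box bound by NF-Y, was in a window of 16 of the 32 genes (50%). Counted by window, it was in 21 of their 37 (56.8%) and in 37.4% of all 32851 RefSeq promoter windows. The Eci1 stretch has no match, the Etfb stretch has 2 and the Mlycd stretch has 3. A further pair of windows is shown because Ogdh and Etfdh are the only ones of the 32 genes with the motif in question, with 1 of the matching windows of Ogdh. Ogdh, at chr11:6292033-6292092 on the plus strand, holds the c-Myc E-box CACGTG in capitals, and Etfdh, at chr3:79628866-79628925 on the minus strand, holds the NRF1 motif, GCGCA joined to TGCGC, in capitals.
Ogdh: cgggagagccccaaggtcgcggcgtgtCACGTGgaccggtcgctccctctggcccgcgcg
Etfdh: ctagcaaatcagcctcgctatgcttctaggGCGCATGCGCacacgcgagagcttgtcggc
CACGTG occurs in 7.15% of all windows and in 3 of the 37 (8.11%), all of them of Ogdh. It lies at 2 genomic places seen in 3 of the 6 windows of Ogdh, which overlap in part. The NRF1 motif is in 0.971% of all windows and in 1 of the 37 (2.7%), that of Etfdh. The core of the antioxidant response element, TGACNNNGC, is in windows of 4 genes (12.5%), Dlst, Idh3g, Mdh1 and Sucla2. Counted by window, it is in 4 of the 37 (10.8%) and in 12.4% of all windows. TNAAGGTCA, bound by oestrogen-related receptors, and the direct repeat of the PPAR family, AGGTCA, any base and AGGTCA again, are in 1.28% and 0.0396% of all windows and in none of the 37. A match describes the letters of the window, and no match says only that these letters are not in it.

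Other genes of the same pathways were counted from 4 lists. Of 35 further genes of mitochondrial and peroxisomal fatty acid oxidation that were tested, over both c-Myc classes 3 rose in metastatic cells, among them Acot2 and Pex5, and 3 fell (Acsl1, Acad9 and Fabp5). This is 8.57% each way, against 8.13% of all genes higher and 5.64% lower, and the list's median log2 change was 0.65 beside 0.28 over all genes. Pex5, the receptor that brings enzymes into peroxisomes, was at 70.2, 47.4 and 122 CPM in metastatic c-Myc-high and 110, 92.0 and 163 CPM in metastatic c-Myc-low, against 1.52 and 0.123 CPM in primary c-Myc-high and 71.0 and 46.0 CPM in primary c-Myc-low libraries. The sites lie apart within each c-Myc class, and the log2 change was 3.71 (SE 0.68, adjusted p = 0.00498). Fabp5, the fatty acid binding protein of epidermis, fell by 4.23 on the log2 scale (SE 0.57, adjusted p = 0.000735), to 3.98 to 11.9 CPM in metastatic libraries, against 48.5 to 307 CPM in primary ones, where the keratinocyte markers are also high. It was the only gene of the 4 lists called between c-Myc-low cells of the 2 sites.

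Of 38 other TCA cycle, pyruvate entry and anaplerosis genes tested, 2 rose in the metastatic c-Myc-high group, among them Pdk2, and 0 fell, against 1.65% of all genes higher and 2.31% lower. Pdk2, a kinase that inactivates pyruvate dehydrogenase, had 416 counts in metastatic and 0 in primary c-Myc-high libraries, at least 68.7-fold higher against a floor of 3 counts over the group (adjusted p = 0.0187), and it was the 1 gene of the 38 that rose over both classes, against 8.13% of all genes. Of 22 regulators of fatty acid oxidation tested, 4 rose over both classes (Pparg, Ppargc1a, Tfeb and Foxo1) and Rxra fell, against 8.13% of all genes higher and 5.64% lower. Ppargc1a, a coactivator of mitochondrial genes, was at 201, 18.1 and 624 CPM in metastatic c-Myc-high and 199, 120 and 43.8 CPM in metastatic c-Myc-low, against 25.8 and 6.64 CPM in primary c-Myc-high and 1.27 and 5.46 CPM in primary c-Myc-low libraries. Metastatic c-Myc-high replicate 2 falls within the primary range, and the log2 change was 4.63 (SE 1.04, adjusted p = 0.0138).

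Of 21 genes of fatty acid and sterol synthesis tested, Fads1 rose and Acly, Elovl6, Hmgcs1 and Sqle fell over both classes, against 8.13% of all genes higher and 5.64% lower, with a list median of -1.10 beside 0.28 over all genes. Acly, which makes cytosolic acetyl-CoA from citrate, was at 56.0, 97.2 and 70.7 CPM in metastatic c-Myc-high and 119, 78.0 and 69.7 CPM in metastatic c-Myc-low, against 1009 and 289 CPM in primary c-Myc-high and 192 and 133 CPM in primary c-Myc-low libraries. All metastatic values lay below all primary ones (log2 change -2.00, SE 0.48, adjusted p = 0.0192). Hmgcs1, of cholesterol synthesis, fell by 3.28 on the log2 scale (SE 0.50, adjusted p = 0.00185). No gene of the 4 lists was called between c-Myc classes at either site or on average, nor for the difference between sites.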

How the data were processed

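RNA was sequenced from 10 libraries in 4 groups, which the labels name by site and GFP class. The authors deposited estimated counts per transcript, unscaled between libraries, and RPKM, named so per the file headers and scaled to transcript length and library size. Bowtie2, limma and the mm10 build appear in the submitters' processing notes. The quantifier, annotation release and strandedness of the counting are not given here. Totals of 1603012 to 6844328 estimated counts limit what can be seen, and the floor for a fold against 0 counts was 3 counts over the group; intervals cover counting error only. Per gene name the estimated counts were summed and rounded. Genes passing edgeR's default filter numbered 16805. They were fitted over all 4 groups with TMM factors and robust quasi-likelihood tests (edgeR 4.0.16, limma 3.58.1, R 4.3.3) without covariates, with a common biological coefficient of variation of 0.876. Adjusted p-values are edgeR's with Benjamini-Hochberg adjustment over all genes tested unless DESeq2 (1.42.0) is named, and an adjusted p under 0.05 is a call; DESeq2 gave none for Acacb. The 7 comparisons were metastatic over primary within each c-Myc class and on average, c-Myc-high over c-Myc-low within each site and on average, and the difference of the c-Myc contrast between sites. The fit was tested on simulated data. Levels in figures are log2(CPM + 1). Alternatives covered the counting row, scaling, filter, tool, RPKM with 2 pseudocounts, the replicate block, depth and each library left out; those without the gland-rich or B-cell-rich libraries and with protein-coding rows (GENCODE vM21) were chosen after seeing the data. Near-identical transcripts were found with BLAST 2.17.0, and overlapping exons in the same annotation.

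The 35 genes, pathway lists and marker lists were chosen with earlier results of these data known. Values in every library are given for each gene called by edgeR and, in each of 10 roles, for the gene with the highest mean RPKM and those with the lowest p between c-Myc classes and between sites in c-Myc-high cells. Other genes given with values were chosen after their values were seen. Some called genes of the pathway lists are not reported here by name.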

Additional observations from a re-analysis of the deposited data

How the results depend on the processing

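The number of the 35 genes called depended on the fit, and no call reversed. For metastatic over primary c-Myc-high cells the 0 genes became 4 with DESeq2, 7 with the 8 deepest libraries and 0 to 3 when libraries were left out 1 at a time. For c-Myc-low cells it became 4 with limma-voom and quality weights and 1 with these 2 groups alone. Between c-Myc classes it became 1 (DESeq2) and 6 (8 deepest libraries) in primary cells, and 2 and 3 on average over sites. The 8 deepest libraries leave primary c-Myc-high cells with replicate 1 alone, which is then assumed to vary like the other groups. For metastatic over primary cells on average, the 2 genes became 5 with DESeq2 and with the 8 deepest libraries. They became 1 with the highest transcript row, DESeq2's size factors, RPKM with a pseudocount of 0.1, protein-coding rows only or no gland-rich libraries. They became 0 without a filter, with limma-voom, with RPKM and a pseudocount of 1, or without the B-cell-rich libraries, and 0 to 3 when libraries were left out 1 at a time. Over the same left-out libraries the log2 change was 3.22 to 4.97 for Eci1 and 1.86 to 2.44 for Etfb. Leaving out a primary library leaves its group with 1, assumed to vary like the other groups. The cause was not tested. Apart from DESeq2, the shares of all genes called by these alternatives are not given here, so their counts cannot be set against them.

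With the replicate number as a block 0 genes were called on average between sites. The deviations of same-numbered libraries from their group means had correlations of -0.305 to 0.153. In groups of 2 libraries the deviations mirror each other, so these values cannot decide whether the numbers pair the samples. The labels do not say.

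In primary c-Myc-high replicates 1 and 2, with 5075407 and 1603012 counts in total, 27 and 26 of the 35 reached 10 counts. In primary c-Myc-low replicate 2, with 3314654 counts, 34 did. Total depth thus does not order these numbers, and what sets them was not tested.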

Other observations

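Transcript rows differed between libraries for most of the 35 genes. In 9 there was 1 row, in 7 with several rows the same row was on top in every library with counts, and in 19 more than 1 row was on top in some library. Rows annotated as protein-coding held 24.5% of the counts of Hadha, 40.6% of Mdh2, 44.5% of Idh3g, 46.2% of Acadvl, 49.5% of Idh2, 53.1% of Etfb and 60% of Fh1 over all libraries, and 100% of Cs, Dlst, Dld and Acaca. Etfb-201, the protein-coding row of Etfb, had 31.6, 3.49 and 3.19 CPM in metastatic c-Myc-high, 17.6, 11.3 and 2.51 CPM in metastatic c-Myc-low, 0.594 and 0.3 CPM in primary c-Myc-high, and 16.4 and 2.67 CPM in primary c-Myc-low libraries. Its metastatic c-Myc-high values lie above both primary c-Myc-high values, as the summed values do.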
